A study of Mus musculus with 12 samples.

Results

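Blood-brain barrier endothelial genes were examined as a set of 10 genes, taken by gene symbol from the 31208 genes listed for these brains: the junction genes Cldn5, Ocln and Tjp1, the adhesion genes Pecam1 and Cdh5, the VEGF receptor Flt1, the transporters Mfsd2a, Abcb1a and Slco1a4, and the arterial gene Gkn3. The symbol of each gene was found on 1 line of the table. They were chosen by name, with expression values of these same mice already known, among them the low Gkn3 values of the ischemic groups. Brain RNA came from 12 C57BL/6 mice aged 8 weeks, 4 in each of 3 groups. Sham mice had no ischemia. Vehicle-treated ischemic mice had received vehicle (saline, per the methods) into a cerebral ventricle on the day before the left middle cerebral artery was occluded, and lactate-treated ischemic mice had received lactate in its place, which the methods name as D-lactate and the labels only as lactate. Ischemic brains were taken at 6 h. Whether sham mice were injected is not given in the sources used here, so ischemia and the injection cannot be told apart in the comparisons with sham. Full-length cDNA was read on a nanopore sequencer, and each mouse had 6815920 to 10677224 reads counted on genes. Values below are reads counted on a gene, scaled to the total counted in that mouse (CPM), and 3 counts, taken as the lowest level that can be told from 0, equal 0.281 to 0.440 CPM.

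The blood-brain barrier is formed by the endothelial cells of brain capillaries. These cells are sealed by tight junctions, carry out little transport in vesicles, and hold transporters that let nutrients in and push drugs and other organic compounds out. Signals from pericytes, astrocyte endfeet and neural cells keep this state, and after stroke the barrier becomes leaky. In whole brain tissue, a lower level of an endothelial gene in a group can come from fewer cells of the type or from less RNA per cell, and the 2 cannot be told apart here. Of the 32 other endothelial identity genes on a list drawn up for this comparison, each had reads in every group, so endothelial RNA was present in sham and ischemic brains alike. Junction, transporter and receptor genes can also be read from other cells: Tjp1 is not limited to endothelium, and Pecam1 is carried by platelets and leukocytes as well.

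Sequences upstream of 3 genes are shown because Slco1a4 and Gkn3 had lower CPM in the ischemic groups than in sham mice, and Mfsd2a had higher CPM. Each is the 250 bases before the start site in RefSeq (build GRCm38.p6), which held such an entry for 8 of the 10 genes. All 3 lie on the minus strand: Mfsd2a at chr4:122961189-122961438, Slco1a4 at chr6:141856221-141856470 and Gkn3 at chr6:87388936-87389185. They are written 5′ to 3′ on the strand of the gene, with capitals for matches to the cores ACGTG (hypoxia response element), CTTTGA (TCF/LEF) and ACAATG (SOX, seen here as its reverse complement), searched on both strands.
Mfsd2a: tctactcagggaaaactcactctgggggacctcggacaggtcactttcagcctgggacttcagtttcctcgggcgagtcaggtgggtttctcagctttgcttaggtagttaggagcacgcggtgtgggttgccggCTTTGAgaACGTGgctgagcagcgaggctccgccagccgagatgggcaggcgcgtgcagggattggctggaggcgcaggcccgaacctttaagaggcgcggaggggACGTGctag
Slco1a4: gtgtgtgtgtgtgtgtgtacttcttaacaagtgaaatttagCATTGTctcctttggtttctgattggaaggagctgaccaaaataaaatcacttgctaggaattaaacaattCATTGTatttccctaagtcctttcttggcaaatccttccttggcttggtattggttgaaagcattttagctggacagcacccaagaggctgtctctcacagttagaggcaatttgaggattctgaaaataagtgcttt
Gkn3: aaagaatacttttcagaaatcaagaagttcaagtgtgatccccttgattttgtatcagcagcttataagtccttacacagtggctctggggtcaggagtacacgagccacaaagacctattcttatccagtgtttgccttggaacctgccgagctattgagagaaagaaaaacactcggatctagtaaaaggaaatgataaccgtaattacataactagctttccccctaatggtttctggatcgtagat
The Mfsd2a sequence held ACGTG at positions -107 and -9, counted back from the start site, and CTTTGA at -115. ACGTG was found in 16.6% and CTTTGA in 13.8% of the 32851 RefSeq sequences of the same length. Slco1a4 held the reverse complement of ACAATG at -209 and -138, a core found in 10.7% of these sequences. Gkn3 held none of these 3 cores. The ETS core CCGGAA had no match in the 3 sequences, and is found in 12% of the RefSeq sequences. No match was found either for the forkhead core, TGTTTAC, which 3.17% of them hold. The letters TATAAA, the core of the TATA box, were likewise without a match, and 12.4% hold them. The AP-1 motif TGANTCA, found in 6.75%, had no match as well. The E-box CANNTG, which 66.2% hold, matched in each of the 3 sequences and is not capitalised. Its matches lay at -172 in Mfsd2a, at -223 and -161 in Slco1a4 and at -221 in Gkn3. The 3 sequences also differed in CpG content, with 17 CpG in Mfsd2a, 0 in Slco1a4 and 5 in Gkn3, against a median of 6 over the RefSeq sequences. A match is a description of the letters only, since binding was not measured in these brains.

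Among the transporters, Mfsd2a and Slco1a4 moved in opposite directions. Mfsd2a encodes the carrier that takes lysophosphatidylcholine with omega-3 fatty acids into the brain and holds vesicle transport low in brain endothelium. Its gene lies at chr4:122946850-122961188 on the minus strand (GRCm38, as are all gene positions here, from GENCODE release M21). Mfsd2a measured 4.35, 4.68, 3.94 and 5.18 CPM in sham mice 1 to 4, 8.99, 5.57, 6.35 and 11.4 CPM in vehicle-treated mice, and 10.95, 7.42, 10.8 and 8.81 CPM in lactate-treated mice. Every ischemic mouse lay above every sham mouse. The mean was 4.54 ± 0.525 CPM in sham (SD, n = 4), 8.09 ± 2.67 CPM with vehicle and 9.50 ± 1.69 CPM with lactate. Mfsd2a rose 2.12-fold in lactate-treated brains against sham (log2 fold change 1.09, SE 0.21, edgeR adjusted p = 0.00494). The fitted difference of vehicle-treated brains from sham was 1.82-fold (log2 0.86, SE 0.26, edgeR adjusted p = 0.164) and missed the threshold of 0.05. These adjusted p values, from edgeR's quasi-likelihood test, adjusted by Benjamini-Hochberg over every gene in the fit, place a gene among all genes and do not allow for the way these 10 were chosen. Lactate and vehicle differed by 0.21 on the log2 scale (SE 0.26, edgeR adjusted p = 0.845), and the 4 lactate-treated mice overlapped the vehicle-treated mice.

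Slco1a4 (Oatp1a4), at chr6:141805440-141856199 on the minus strand, encodes an organic anion transporter of brain capillaries that moves steroid conjugates, bile acids and drugs such as statins. It measured 31.9, 22.2, 36.5 and 31.2 CPM in sham mice 1 to 4, 7.77, 23.3, 13.1 and 12.03 CPM with vehicle, and 7.30, 5.39, 12.9 and 11.02 CPM with lactate. The lactate-treated mice all lay below the sham mice, while vehicle-treated mouse 2 lay above sham mouse 2. Slco1a4 fell 3.25-fold in lactate-treated brains against sham, from 30.5 ± 6.00 to 9.16 ± 3.43 CPM (SD, n = 4; log2 fold change -1.70, SE 0.24, edgeR adjusted p = 7.30e-04). With vehicle the mean was 14.0 ± 6.59 CPM and the log2 fold change -1.08 (SE 0.28, edgeR adjusted p = 0.0989).

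Vehicle-treated mouse 2 stands apart in another way. All 7 choroid plexus markers had counts in it, summing to 1844 CPM, of which Ttr (transthyretin, made by the choroid plexus) gave 1817 CPM. In the other 7 ischemic mice these markers summed to 5.87 to 20.1 CPM, and in sham mice to 2.17 to 6.07 CPM. Besides Slco1a4, this mouse had the highest Cldn5 and Gkn3 values of its group, and it had the lowest Mfsd2a and Tjp1 values (5.57 and 7.90 CPM). It also had 6 counts of Slco1a5, a close relative of Slco1a4, which had 0 counts in the other vehicle-treated and the sham mice and 1 count in 1 lactate-treated mouse. The part of choroid plexus RNA in the Slco1a4 value was not tested. Without vehicle-treated mouse 2, Slco1a4 had a log2 fold change of -1.44 with vehicle against sham (edgeR adjusted p = 0.0137), past the threshold. For Slco1a4 the log2 difference of lactate from vehicle was -0.63 (SE 0.35, edgeR adjusted p = 0.624), and the groups overlapped.

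**Figure D1:**
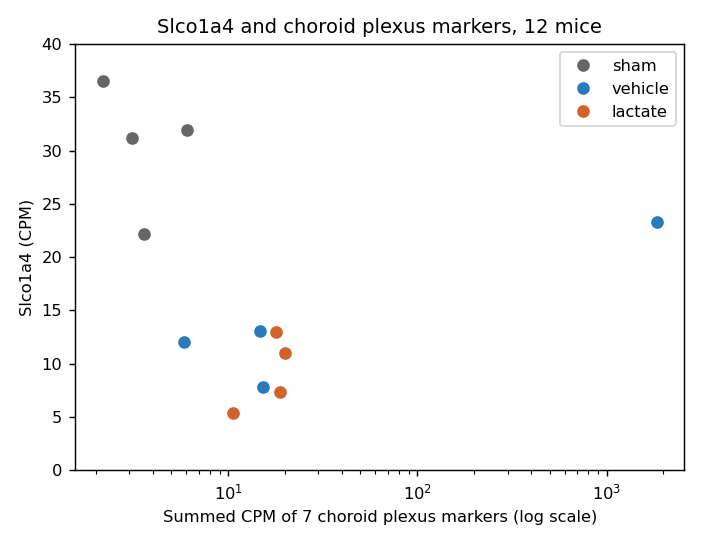
Slco1a4 (CPM, linear axis) against the summed CPM of 7 choroid plexus markers (log axis), 1 point per mouse, coloured by group. Vehicle-treated mouse 2, at 1844 CPM of markers and 23.3 CPM of Slco1a4, lies far to the right of the other 11 mice.

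Abcb1a encodes P-glycoprotein, the main drug efflux pump of the mouse barrier, at chr5:8660077-8748575 on the plus strand. It measured 5.27, 5.91, 5.16 and 6.29 CPM in sham mice 1 to 4, 7.49, 5.31, 4.48 and 2.93 CPM with vehicle, and 3.38, 2.99, 5.27 and 5.57 CPM with lactate. The 3 groups overlapped. The spread was wider in the ischemic groups, with a coefficient of variation of 37.6% with vehicle and 30.3% with lactate, against 9.44% in sham. The log2 fold change was -0.11 with vehicle (SE 0.28, edgeR adjusted p = 0.906) and -0.37 with lactate (SE 0.24, edgeR adjusted p = 0.364). Its close relative Abcb1b had 26 to 34 counts in sham mice, 28 to 49 with vehicle and 20 to 42 with lactate, and reads could have been divided between the 2 genes by the authors' counting. Abcb1b passed the test in 0 of the 3 comparisons (edgeR adjusted p = 0.703, 0.826 and 0.728 for vehicle against sham, lactate against sham and lactate against vehicle). For Slco1a4 the relatives held few reads: Slco1a6 had 0 counts in the 12 mice, and Slco1a1 had 0 to 4.

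Gkn3 had the largest difference from sham of the 10 genes in both ischemic groups. It encodes gastrokine 3, a secreted protein of the stomach whose transcript in the mouse brain marks arterial endothelial cells, at chr6:87383256-87388935 on the minus strand. Sham mice 1 to 4 had 29, 49, 32 and 29 counts, vehicle-treated mice 5, 10, 7 and 4 counts, and lactate-treated mice 0, 1, 4 and 1 counts. In CPM this was 4.30 ± 0.837 in sham, 0.805 ± 0.368 with vehicle and 0.191 ± 0.231 with lactate (SD, n = 4). The vehicle-treated mice did not overlap the sham mice, nor did the lactate-treated mice, of which 3 had no more than 3 counts. Summed over the mice, sham brains had 5.55 times the CPM of vehicle-treated brains (95% exact interval 3.63 to 8.79, from 139 against 26 counts) and 23.1 times that of lactate-treated brains (10.4 to 64.1, from 139 against 6 counts), and these intervals cover counting error only. Of the 6 counts 4 came from lactate-treated mouse 3, and without it the ratio was 52.9 (14.4 to 441, from 139 against 2 counts), while without any other single mouse it was 17.8 to 24.5. The decrease of Gkn3 against sham was known from earlier work on these data when the 10 genes were chosen, so it is given as a description without a p value. Gkn3 passed the filter on low counts against sham through its level in sham mice, and it was not tested between the ischemic groups, where it did not reach 1 CPM in 4 mice. Without that filter the log2 difference of lactate from vehicle was -2.04 (edgeR adjusted p = 0.552). These groups overlapped, since lactate-treated mouse 3, at 0.527 CPM, lay above vehicle-treated mouse 1, at 0.468 CPM. The relatives Gkn1 and Gkn2 had at most 2 and 0 counts in a mouse.

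**Figure D2:**
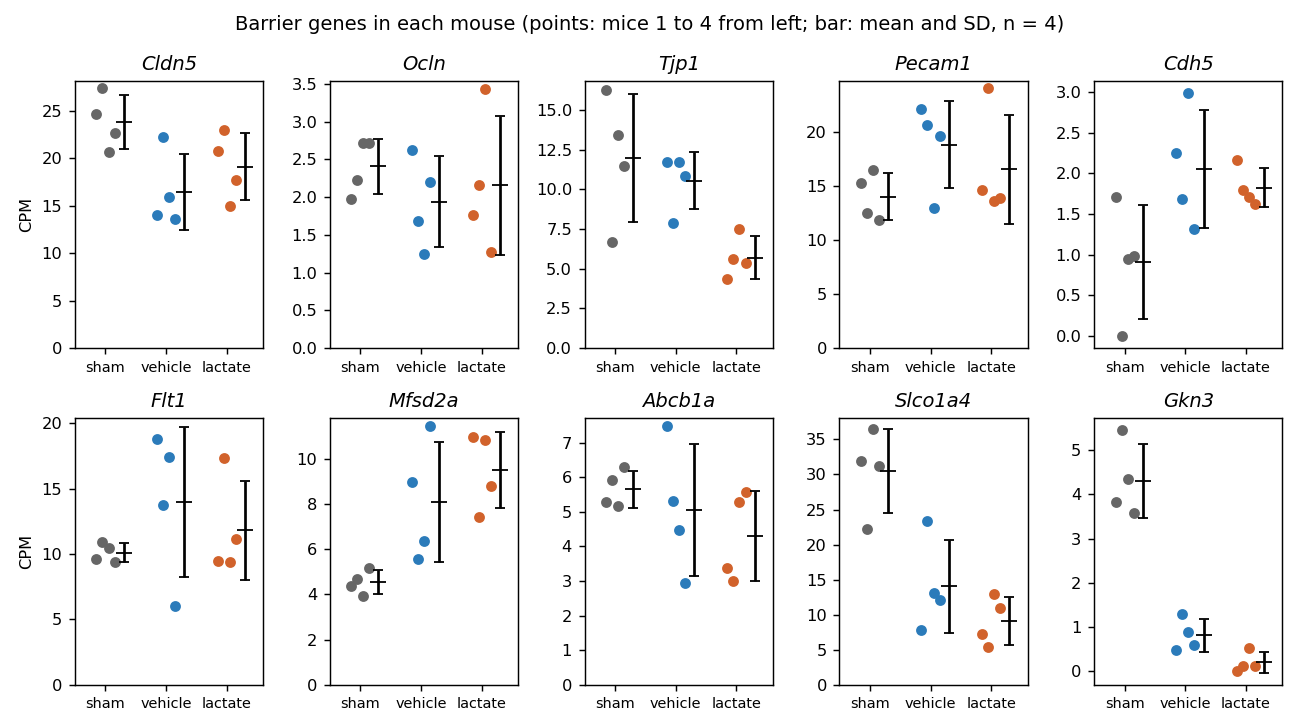
CPM of each of the 10 genes in the 12 mice, 1 panel per gene with its own axis from 0 (Cdh5 and Gkn3 slightly below it). Points are mice 1 to 4 of a group from left to right, and bars are the mean and SD (n = 4). Mfsd2a is higher and Gkn3 lower in each ischemic mouse than in each sham mouse, and Tjp1 lies at 4.33 to 7.52 CPM in the lactate-treated mice against 7.90 to 11.7 CPM with vehicle.

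Of the junction genes, Tjp1 with lactate passed the test against sham, and the fitted differences of Tjp1, Cldn5 and Ocln from sham were below 0 in both ischemic groups. Of these 6 differences 2 changed sign when 1 mouse was left out, Tjp1 with vehicle without sham mouse 1 (log2 0.03) and Ocln with lactate without lactate-treated mouse 4 (log2 0.06). Tjp1 (ZO-1), the scaffold that ties tight junction strands to actin, lies at chr7:65296165-65527781 on the minus strand. It measured 16.2, 6.69, 13.4 and 11.5 CPM in sham mice 1 to 4, 11.7, 7.90, 11.7 and 10.9 CPM with vehicle, and 4.33, 5.63, 7.52 and 5.33 CPM with lactate. Each lactate-treated mouse lay below each vehicle-treated mouse, but lactate-treated mouse 3 lay above sham mouse 2. Tjp1 fell 2.03-fold in lactate-treated brains against sham, from 11.96 ± 4.02 to 5.70 ± 1.33 CPM (log2 fold change -1.02, SE 0.26, edgeR adjusted p = 0.0201). This call was lost when sham mouse 1, sham mouse 3 or lactate-treated mouse 1 was left out (edgeR adjusted p = 0.0662, 0.0608 and 0.0613). The vehicle-treated mean was 10.5 ± 1.81 CPM, with a log2 fold change against sham of -0.13 (SE 0.25, edgeR adjusted p = 0.867). Between the ischemic groups the log2 difference was -0.91 (SE 0.23), with an unadjusted P value of 0.00200 and an edgeR adjusted p of 0.460, so it did not pass the test over all genes.

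Cldn5, the main claudin of brain endothelial tight junctions, is a single-exon gene at chr16:18776847-18778262 on the plus strand. Its values were 24.7, 27.4, 20.6 and 22.7 CPM in sham mice 1 to 4, 14.0, 22.3, 15.9 and 13.6 CPM with vehicle, and 20.8, 23.0, 15.03 and 17.7 CPM with lactate. Of the vehicle-treated mice only mouse 2, with the choroid plexus RNA, was above the lowest sham mouse. The fitted log2 fold change was -0.50 with vehicle (SE 0.20, edgeR adjusted p = 0.279) and -0.29 with lactate (SE 0.16, edgeR adjusted p = 0.287), neither past the threshold, and 0.20 between lactate and vehicle (SE 0.21, edgeR adjusted p = 0.813).

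Ocln (occludin), a membrane protein of tight junctions at chr13:100496507-100552718 on the minus strand, was read at low depth. It had 15, 20, 20 and 22 counts in sham mice, 28, 13, 10 and 15 with vehicle, and 13, 18, 26 and 11 with lactate. The groups overlapped, and counting alone gives a coefficient of variation of 22.8% at the sham level, against 15.2% seen between sham mice. Between ischemic mice the spread was wider than counting gives, at 31.0% with vehicle (24.6% from counting) and 42.8% with lactate (24.3% from counting). The log2 fold change was -0.26 with vehicle (SE 0.32, edgeR adjusted p = 0.773) and -0.14 with lactate (SE 0.33, edgeR adjusted p = 0.830), and neither passed the test.

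For the adhesion genes and Flt1, no comparison had an adjusted p under 0.05 in edgeR or in DESeq2. At an unadjusted P under 0.05, Pecam1 with vehicle was the 1 case in edgeR, and Pecam1 and Cdh5 with vehicle were the 2 cases in DESeq2. Pecam1 (CD31), an adhesion molecule of endothelial cell borders at chr11:106654217-106750628 on the minus strand, measured 15.3, 12.5, 16.4 and 11.8 CPM in sham mice 1 to 4. With vehicle it measured 22.1, 20.6, 12.9 and 19.7 CPM, and with lactate 14.6, 24.1, 13.6 and 13.9 CPM. Of the vehicle-treated mice 3 were above the highest sham mouse, and of the lactate-treated mice 1 was. The log2 fold change against sham was 0.47 with vehicle (SE 0.20, edgeR adjusted p = 0.333) and 0.28 with lactate (SE 0.20, edgeR adjusted p = 0.418).

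Cdh5 (VE-cadherin), the cadherin of endothelial adherens junctions at chr8:104101625-104144511 on the plus strand, had 13, 0, 7 and 8 counts in sham mice 1 to 4. It had 24, 13, 24 and 9 counts with vehicle and 16, 15, 13 and 14 counts with lactate. Sham mouse 1, at 1.71 CPM, lay above the lowest vehicle-treated mouse (1.32 CPM) and the lowest lactate-treated mouse (1.62 CPM). The log2 fold change was 1.25 with vehicle (SE 0.59, edgeR adjusted p = 0.375) and 1.06 with lactate (SE 0.54, edgeR adjusted p = 0.234).

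Flt1 (VEGFR1), a receptor for VEGF-A, VEGF-B and placental growth factor that also occurs as a soluble decoy, lies at chr5:147561604-147726011 on the minus strand. It measured 9.63, 10.9, 10.5 and 9.37 CPM in sham mice 1 to 4, 18.8, 13.7, 17.4 and 6.02 CPM with vehicle, and 9.47, 17.4, 9.36 and 11.1 CPM with lactate. Of the vehicle-treated mice 3 lay above the sham range and 1 below it. The log2 fold change was 0.51 with vehicle (SE 0.29, edgeR adjusted p = 0.466) and 0.26 with lactate (SE 0.21, edgeR adjusted p = 0.470). The log2 differences between the ischemic groups for Pecam1, Cdh5 and Flt1 were -0.21, -0.21 and -0.27, with edgeR adjusted p values of 0.826, 0.882 and 0.838. The soluble and membrane forms of Flt1 are not separated in these gene counts.

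**Figure D3:**
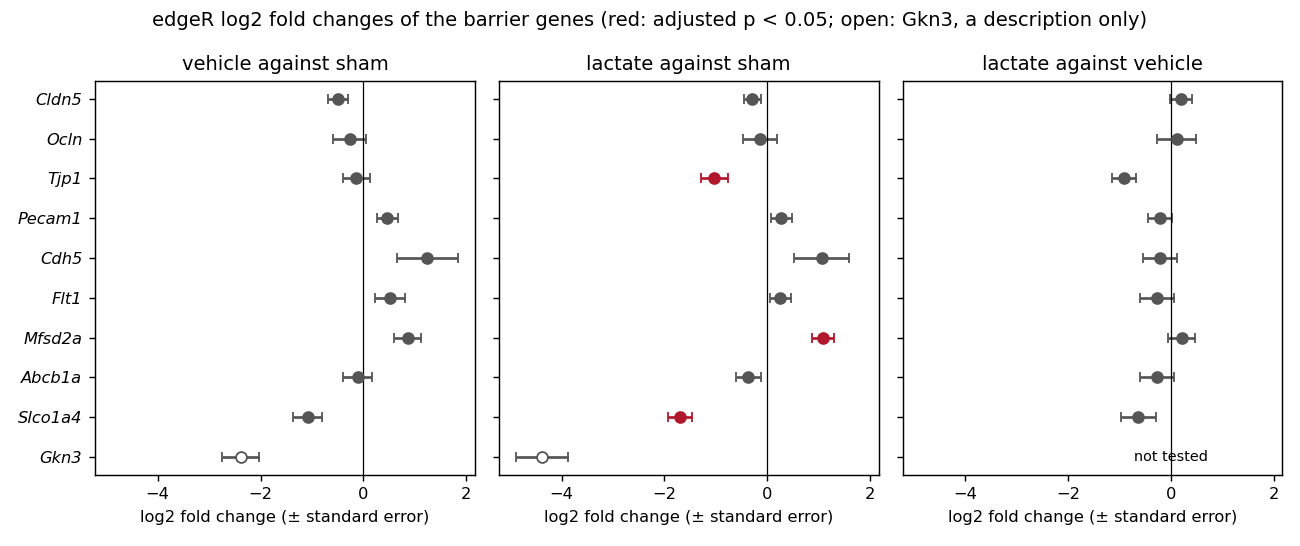
Fitted log2 fold change (± standard error) of the 10 genes in the 3 comparisons, on 1 scale, with genes at an adjusted p under 0.05 in red and Gkn3, shown as a description, as open grey points. In lactate against sham Mfsd2a lies at 1.09, Tjp1 at -1.02, Slco1a4 at -1.70 and Gkn3 at -4.38, and Gkn3 was not tested between the ischemic groups.

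In counts, 0 of the 9 genes other than Gkn3 passed the test in edgeR in vehicle-treated brains against sham, where 1.47% of all 17019 genes tested did. At an unadjusted P under 0.05 there were 4 of these 9 (13.8% of all genes), and 1 (Slco1a4) passed in DESeq2 (2.8% of all genes). In lactate-treated brains 3 of the 9 passed (Mfsd2a higher, Tjp1 and Slco1a4 lower), where 12.3% of 17262 did. The same 3 had an unadjusted P under 0.05 (27% of all genes) and passed in DESeq2 (13.4%). These shares of all genes moved when single mice were left out. The vehicle share ranged from 0.68% to 2.21%, and was over 1.5 times lower without any 1 of the sham mice or vehicle-treated mouse 2 or 3 and over 1.5 times higher without vehicle-treated mouse 1. The lactate share ranged from 7.63% to 11.4%, and was over 1.5 times lower without sham mouse 1 or 3 or lactate-treated mouse 2, where 2, 2 and 3 of the 9 genes passed. Gkn3 was past the same threshold against sham in both groups, which makes 1 and 4 of 10, but it is not counted as support because its values were known. With the limits that the study names (P under 0.05, here unadjusted, and a change of 1.5-fold or more) 2 of the 9 passed with vehicle (Mfsd2a and Slco1a4, against 9.52% of all genes) and 3 with lactate (17.5%). Between the ischemic groups 0 of 9 genes tested passed in edgeR, against 0.00574% of 17419 genes. There 1 gene, Tjp1, had an unadjusted P under 0.05 (8.84% of all genes), 0 passed in DESeq2 (0.35%), and the limits of the study gave Tjp1 as well (6.23% of all genes). Values did not overlap between vehicle-treated and sham mice for Mfsd2a and Gkn3 (9.03% of all genes tested), between lactate-treated and sham mice for Mfsd2a, Slco1a4 and Gkn3 (19.1%), and between the ischemic groups for Tjp1 (4.81%). Since the genes were chosen with results of these data known, these shares are descriptions. The median log2 fold change of the 10 genes was -0.12 with vehicle and -0.21 with lactate, against 0.00 and -0.03 over all genes tested, and between the ischemic groups it was -0.21 over 9 genes against -0.03.

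Set against Cldn5 in the same mouse, the means of Mfsd2a, Slco1a4 and Gkn3 lay on the same side of sham as in CPM. For each 100 counts of Cldn5 there were 131 ± 39.4 counts of Slco1a4 in sham mice (SD, n = 4), 82.5 ± 20.5 with vehicle and 51.6 ± 28.0 with lactate. Mfsd2a stood at 19.2 ± 2.59 counts per 100 of Cldn5 in sham, 53.2 ± 26.0 with vehicle and 51.6 ± 16.2 with lactate, and Gkn3 at 18.1 ± 2.84, 4.73 ± 1.13 and 1.17 ± 1.58. The lowest Mfsd2a ratio of an ischemic mouse was 25.0, above the highest sham ratio of 22.8. For Slco1a4 the groups overlapped, since sham mouse 2 had 80.9 and lactate-treated mouse 3 had 86.0 counts per 100. Against the summed counts of 31 identity genes, with Ctla2a left out, Mfsd2a stood at 0.857 ± 0.110 per 100 in sham, 1.56 ± 0.518 with vehicle and 1.70 ± 0.274 with lactate. The lactate-treated mice lay above the sham mice, while vehicle-treated mouse 2 (0.969) lay below sham mouse 4 (0.986). Slco1a4 stood at 5.74 ± 1.09, 2.66 ± 1.08 and 1.61 ± 0.505 per 100 of the 31. With Ctla2a included, which was higher in both ischemic groups, the sum of the 32 genes was larger there and the Mfsd2a groups overlapped. Per 100 of those counts Mfsd2a stood at 0.821 ± 0.10 in sham, 1.03 ± 0.329 with vehicle and 0.950 ± 0.202 with lactate, with vehicle-treated mouse 2 (0.692) and lactate-treated mouse 2 (0.682) below the lowest sham mouse (0.696). Slco1a4 stood at 5.50 ± 1.05, 1.77 ± 0.783 and 0.916 ± 0.351 on that scale. These ratios compare genes within a mouse and were not tested.

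The pattern over the 12 mice was also compared with 13014 other genes, as log2(CPM + 1) centred on its mean and ranked by root mean square difference. Nearest to Gkn3 were Adh1 (0.278), Edn3 (0.293), which encodes an endothelin, and Insc (0.378). Edn3 had means of 4.65, 1.64 and 0.629 CPM in sham, vehicle and lactate, and it was also second nearest to Slco1a4 (0.343), after Cxcl12 (0.319), a chemokine, and before Slc6a20a (0.371). Nearest to Mfsd2a were Igfbp3 (0.176), Samd14 (0.204) and Acot1 (0.221). For Tjp1 they were Synj2 (0.206), Rbms1 (0.250) and Tcf12 (0.265), and for Cldn5 the nearest was Ramp3 (0.119).

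Other endothelial genes were taken from lists of junctions, transporters, identity genes and arterial genes, 86 genes in all. With vehicle 4 of 71 tested passed against sham, all 4 higher (Ctla2a, Pglyrp1, Slc2a1 and Spns2, against 1.29% of all genes higher). With single mice left out, Pglyrp1 passed there only without vehicle-treated mouse 3, and Spns2 missed the threshold without sham mouse 2, 3 or 4 (edgeR adjusted p up to 0.161 and 0.0625). With lactate 20 of 70 passed, 11 higher (8.76% of all genes) and 9 lower (3.54%). Leaving out single mice gave 9 to 11 higher and 5 to 9 lower. The lower count was 5 without sham mouse 1, sham mouse 4 or lactate-treated mouse 1, and also with all 12 mice in 1 fit, and it was 6 without sham mouse 3 or lactate-treated mouse 2. In DESeq2 6 of 71 passed with vehicle, all 6 higher (2.8% of all genes in either direction), and 21 of 70 with lactate (13.4%). Between the ischemic groups 0 of 71 passed in edgeR and 0 in DESeq2, while 10 had an unadjusted P under 0.05 (14.1% of the 71, against 8.84% of all genes). The median log2 fold change over these genes was -0.02, -0.15 and -0.14 in the 3 comparisons, near that of all genes for vehicle.

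Of 22 other transporters and receptors of the barrier, 3 rose and 5 fell in lactate-treated brains against sham. Over all genes tested there 8.76% rose and 3.54% fell, and these shares also apply to the lactate counts of the lists below. The 5 were Slc22a8, Slco1c1, Tfrc, Slc40a1 and Slc6a6, and only Slc22a8 and Slco1c1 passed in each of the 8 fits without 1 mouse. These were the 2 left without mouse 1 or 4 of the sham group or lactate-treated mouse 1, and with all 12 mice in 1 fit, while the 3 that rose passed in each of these fits. Slc2a1, the GLUT1 glucose carrier of the barrier, measured 36.2 to 52.5 CPM in sham mice, 81.3 to 144 CPM with vehicle and 105 to 140 CPM with lactate, a rise in both (log2 1.33 and 1.49, edgeR adjusted p = 0.00182 and 9.18e-06). Spns2, which exports sphingosine-1-phosphate, rose as well (log2 1.05 and 1.29, edgeR adjusted p = 0.0145 and 5.75e-04), and Slc3a2, the heavy chain of amino acid carriers, rose with lactate (log2 0.70, edgeR adjusted p = 0.00479). With vehicle Slc3a2 had a log2 fold change of 0.49 against sham (edgeR adjusted p = 0.195). Slc22a8 (OAT3), an organic anion carrier, fell with lactate from 5.92 ± 1.60 to 2.17 ± 0.911 CPM (SD, n = 4; log2 -1.40, edgeR adjusted p = 0.0111). Slco1c1, which carries thyroxine, and the transferrin receptor Tfrc also fell with lactate (log2 -0.76 and -0.62, edgeR adjusted p = 0.0153 and 0.0251). The call of Tfrc was lost without mouse 1 or 4 of the sham or of the lactate-treated group (edgeR adjusted p up to 0.0705). Slc40a1, the iron exporter ferroportin, and Slc6a6, the taurine carrier, had log2 fold changes of -1.28 and -0.62 with lactate (edgeR adjusted p = 0.0430 and 0.0287). With single mice left out, Slc40a1 passed only without sham mouse 2 or lactate-treated mouse 3 and Slc6a6 only without these or lactate-treated mouse 4 (edgeR adjusted p up to 0.115 and 0.0870). With vehicle Slc22a8, Slco1c1 and Tfrc had log2 differences from sham of -0.64, -0.49 and 0.00, none past the threshold, and the differences of these 3 between the ischemic groups did not pass either (edgeR adjusted p = 0.613, 0.703 and 0.496).

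**Figure D4:**
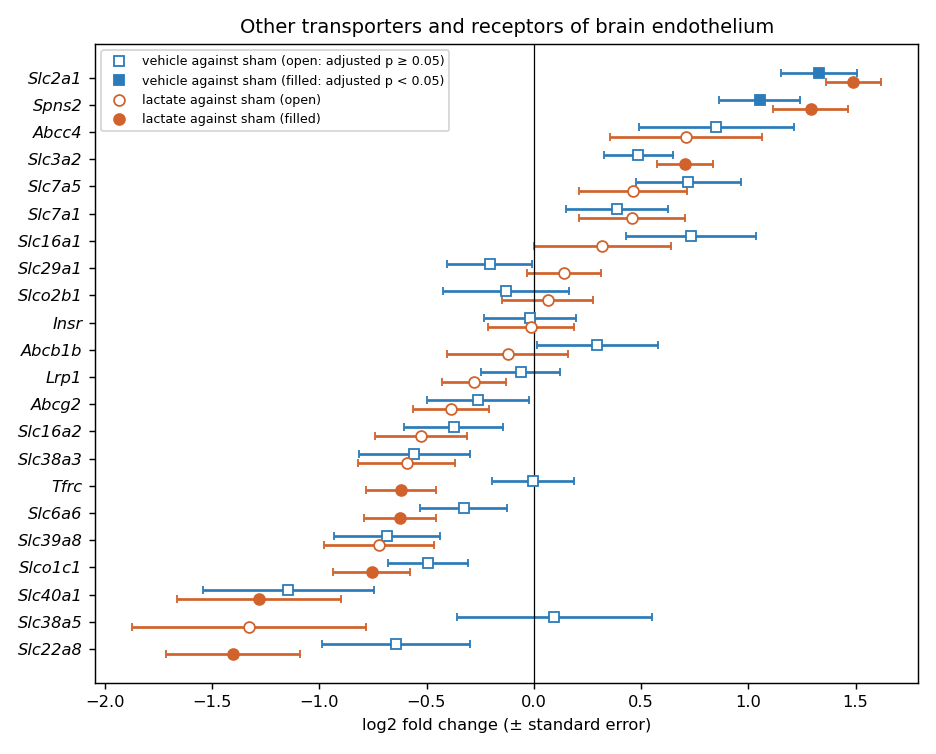
Log2 fold change against sham (± standard error) of 22 other transporters and receptors of brain endothelium, squares for vehicle and circles for lactate, filled at an adjusted p under 0.05. Slc2a1 and Spns2 are filled in both comparisons on the right, and the 5 filled genes on the left are filled for lactate only, a difference between groups that did not pass a test.

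Of 14 other junction genes tested, Esam, an adhesion molecule of endothelial tight junctions, rose with lactate (log2 0.68, edgeR adjusted p = 0.00916) and Cldn12 fell (log2 -0.55, edgeR adjusted p = 0.0340), and with vehicle 0 passed in edgeR or DESeq2, with 2 at an unadjusted P under 0.05. With single mice left out, Cldn12 passed only without sham mouse 1 or lactate-treated mouse 2 (edgeR adjusted p up to 0.0889). In vehicle-treated brains the log2 fold changes of Esam and Cldn12 against sham were 0.27 and -0.60 (edgeR adjusted p = 0.568 and 0.151). Lactate differed from vehicle by log2 0.39 and 0.03 for the same genes (edgeR adjusted p = 0.550 and 0.980). Among 26 identity genes tested with lactate 5 rose and 3 fell (8.76% and 3.54% of all genes). The largest rise was in Ctla2a, a cysteine protease inhibitor, from 18.2 to 26.9 CPM in sham mice to 168 to 341 CPM with vehicle and 311 to 624 CPM with lactate (log2 3.60 and 4.35, edgeR adjusted p = 9.27e-06 and 6.64e-08). Ly6a (Sca-1) and Pglyrp1, a peptidoglycan-binding protein, rose with lactate (log2 0.92 and 1.64, edgeR adjusted p = 6.75e-04 and 3.88e-04). Itm2a, a membrane protein, fell with lactate from 57.7 ± 4.24 to 24.5 ± 2.95 CPM (log2 -1.21, edgeR adjusted p = 9.01e-05). So did Tie1, an endothelial receptor tyrosine kinase, and Egfl7, an endothelial secreted protein (log2 -1.22 and -0.49, edgeR adjusted p = 0.0198 and 0.0128), though the call of Tie1 was lost without sham mouse 1 or lactate-treated mouse 2 (edgeR adjusted p up to 0.0590). With vehicle Ly6a, Pglyrp1, Itm2a, Tie1 and Egfl7 had log2 fold changes of 0.35, 1.40, -0.79, -1.01 and -0.29 against sham. Of these only Pglyrp1 passed (edgeR adjusted p = 0.335, 0.0459, 0.159, 0.250 and 0.320 in that order). Between the ischemic groups none passed (edgeR adjusted p = 0.481, 0.845, 0.639, 0.893 and 0.659). The summed level of the identity list was 541 to 565 CPM in sham mice, 691 to 865 CPM with vehicle and 953 to 1088 CPM with lactate. Without Ctla2a the other 31 genes summed to 519 to 547 CPM in sham mice, 469 to 574 CPM with vehicle and 464 to 648 CPM with lactate, ranges that overlap. The median log2 fold change of the identity genes tested was -0.01 with vehicle and -0.31 with lactate against sham.

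Of 8 other arterial genes tested, Mgp, an inhibitor of vessel calcification, and Tm4sf1 rose with lactate (log2 0.80 and 0.62, edgeR adjusted p = 0.00207 and 0.0442), and 0 fell. With single mice left out, Tm4sf1 passed only without lactate-treated mouse 1 (edgeR adjusted p up to 0.130). With vehicle Mgp and Tm4sf1 had log2 fold changes of 0.59 and 0.27 against sham (edgeR adjusted p = 0.108 and 0.634). In DESeq2 Mgp passed with vehicle, 1 of the 8 tested (2.8% of all genes). Gkn3, the arterial gene among the 10, had its lowest values in these lactate-treated mice. The arterial list summed to 103 to 121 CPM in sham mice, 112 to 144 CPM with vehicle and 133 to 161 CPM with lactate. Arterial smooth muscle markers summed to 33.3 to 43.9, 28.0 to 38.7 and 26.4 to 40.5 CPM, with 0 of 6 past the test against sham in edgeR and DESeq2 in both ischemic groups and 2 at an unadjusted P under 0.05 in each.

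Among venous and capillary genes, Ackr1, a chemokine-binding receptor of venules, rose with lactate (log2 0.85, edgeR adjusted p = 0.00620), and Cxcl12 and Tfrc fell, of 10 tested. Cxcl12 fell from 26.0 ± 3.16 to 12.5 ± 4.16 CPM (log2 -1.02, edgeR adjusted p = 0.00786). With vehicle Ackr1 and Cxcl12 had log2 fold changes of 0.66 and -0.94 against sham (edgeR adjusted p = 0.165 and 0.0598). Between the ischemic groups the log2 differences were 0.17 and -0.09 (edgeR adjusted p = 0.827 and 0.949). In DESeq2 1 of the 11 venous and capillary genes tested with vehicle passed (2.8% of all genes). Of 12 VEGF and angiopoietin genes tested with lactate, Angpt2, a Tie2 ligand released by activated endothelium, rose (log2 2.32, edgeR adjusted p = 0.00198), Vegfa, a ligand of Flt1, rose (log2 0.94, edgeR adjusted p = 0.0275) and Tie1 fell. Vegfa missed the threshold without sham mouse 1, 2 or 4 or lactate-treated mouse 2 or 4 (edgeR adjusted p up to 0.0800). With vehicle the values of Angpt2 and Vegfa were 1.98 and 1.28 on the log2 scale (edgeR adjusted p = 0.0609 and 0.134). Between the ischemic groups they were 0.32 and -0.36 (edgeR adjusted p = 0.803 and 0.793). In DESeq2 3 of the 13 VEGF and angiopoietin genes tested with vehicle passed (2.8% of all genes), and 3 of 12 with lactate (13.4%). Wnt signalling genes, which keep barrier identity, passed in 0 of 15 in edgeR and DESeq2 in each comparison, with 2, 2 and 1 at an unadjusted P under 0.05. Of 8 caveola and fenestration genes Cavin1 rose with lactate (log2 0.99, edgeR adjusted p = 0.0362), a call that remained only without sham mouse 2 or lactate-treated mouse 4 when single mice were left out (edgeR adjusted p up to 0.103), while Plvap, a marker of leaky endothelium, measured 7.34 ± 1.01, 7.99 ± 1.10 and 7.98 ± 1.35 CPM in sham, vehicle and lactate. With vehicle Cavin1 had a log2 fold change of 0.70 against sham (edgeR adjusted p = 0.457).

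Markers of cells beside the endothelium were read in the same mice. Pericyte markers summed to 63.4 to 86.4 CPM in sham, 55.4 to 75.6 with vehicle and 52.9 to 64.1 with lactate, with 0 of 11 past the test in edgeR and DESeq2 and 0 and 2 at an unadjusted P under 0.05 against sham. Neuron markers passed in 0 of 8, in edgeR and DESeq2 and also at an unadjusted P under 0.05. With lactate against sham the astrocyte genes Gfap and Gjb6 rose (2 of the 12 given here, with the other 10 between log2 -0.35 for Kcnj10 and 0.33 for Aqp4 and not past the test), the oligodendrocyte genes Mog and Cnp fell (2 of 6), the microglial gene C1qa rose and P2ry12 fell (2 of 6), Col3a1 of meningeal fibroblasts rose (1 of 5), and 4 of 5 red blood cell genes fell. Without single mice, 1 to 4 of the blood cell genes passed: Hbb-bt in 8 of 8 fits, Hbb-bs in all but that without lactate-treated mouse 3, Hba-a2 in all but those without sham mouse 1 or lactate-treated mouse 3 or 4, and Hba-a1 only without sham mouse 2 or lactate-treated mouse 1. Col3a1 missed the threshold without sham mouse 1, 3 or 4 or lactate-treated mouse 1 (edgeR adjusted p up to 0.0912). With vehicle against sham Gfap rose as well (1 of the 12), and the microglial genes P2ry12 and Cx3cr1 fell (log2 1.64, -1.01 and -1.21, edgeR adjusted p = 0.0201, 0.0275 and 0.0201). Gfap missed the threshold there without sham mouse 2, 3 or 4, P2ry12 passed only without vehicle-treated mouse 1 or 2, and Cx3cr1 only without either of these or sham mouse 4. With vehicle Gjb6, Mog, Cnp, C1qa and Col3a1 had log2 fold changes of 0.69, 0.04, -0.35, 0.42 and 0.46 against sham. None of these passed (edgeR adjusted p = 0.123, 0.967, 0.414, 0.502 and 0.716). Hbb-bt, Hbb-bs, Hba-a1 and Hba-a2 lay at log2 -0.62, -0.39, -0.44 and -0.45 with vehicle (edgeR adjusted p = 0.0750, 0.253, 0.178 and 0.175). Blood cell genes summed to 560 to 633 CPM in sham mice, 333 to 500 CPM with vehicle and 375 to 499 CPM with lactate. Ependymal markers passed in 0 of 3 in edgeR and DESeq2, with 0 and 1 at an unadjusted P under 0.05 against sham. The choroid plexus gene Ttr, the 1 gene of its list of 7 tested with lactate against sham, rose (log2 3.25, edgeR adjusted p = 9.51e-05). Ttr measured 0.815 to 2.90 CPM in sham mice and 7.78 to 16.2 CPM with lactate. Vehicle-treated mice 1 to 4 had 13.77, 1817, 11.95 and 2.64 CPM, and mouse 4 lay within the sham range. The vehicle difference from sham was log2 8.32 and missed the threshold (edgeR adjusted p = 0.0620). Ttr did not pass between the ischemic groups (log2 -5.08, edgeR adjusted p = 0.496). The part of these cells in the levels of the 10 genes was not tested.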

How the data were processed

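Brain RNA of 12 mice was compared, 4 sham, 4 vehicle-treated and 4 lactate-treated, grouped by sample label. Reads from a PCR cDNA kit on the nanopore platform were filtered by the authors for length and quality, freed of ribosomal RNA, kept when full-length and not chimeric, mapped with minimap2 and passed through pinfish and gffcompare. The submitters' processing notes name GRCm38 and DESeq 1.10.1. How reads were counted per gene, and whether by strand, is not given in the sources used here. The authors deposited raw counts per gene, and CPM, which are these counts divided by the total of the mouse. Their own P values and fold changes for pairs of groups were not used. Of 31208 genes, 22036 have Ensembl identifiers and 8652 are loci marked as new, and 4 lines without a gene were left out. Totals were 6815920 to 10677224 counts. Reads carry no molecular identifiers, so copies made in PCR cannot be told from separate molecules. The intervals from summed counts take reads as independent and leave out variation between mice.

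For every pair of groups, counts were fitted with edgeR 4.0.16 in R 4.3.3 (quasi-likelihood test, TMM, genes reaching 1 CPM in 4 or more of the 8 mice, Benjamini-Hochberg over all genes tested). A gene passed at an adjusted p under 0.05 at any fold. Standard errors are derived from the F statistic and are approximate. The test was tested on simulated data first. Alternatives were DESeq2 1.42.0, other size factors, other filters, 1 fit of all mice, a block on mouse number, Ensembl genes only, the limits of the study, and leaving out each mouse in turn. Tables and plots were made in Python 3.11.15 with matplotlib 3.10.9, scipy 1.17.1, pandas 2.3.3 and numpy 2.4.6.

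The 10 genes and the other lists were chosen with earlier results of these data known. Named from each list were the genes with an adjusted p under 0.05 in lactate against sham, at most 3 in each direction by smallest p, or the gene with the smallest p. Plvap, Cx3cr1, Hba-a1, Slc40a1, Slc6a6, Kcnj10 and Aqp4 were named after their values were seen, and 1 gene that met the rule is not reported here. Groups share mouse numbers in the labels, but the mice differ.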

Additional observations from a re-analysis of the deposited data

Results flagged for a closer look

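Of 30 sets of 4 mice (10 genes in 3 groups), 1 held a mouse far from the others. Pecam1 in lactate-treated mouse 2 was at 24.1 CPM, and the other 3 lactate-treated mice were at 13.6 to 14.6 CPM. The gap to the nearest mouse was 0.903 of the range of the group. Chance marks about 1 set in 20 in this way.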

How the results depend on the processing

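The fold changes of Mfsd2a and Slco1a4 in lactate against sham passed the threshold in 17 of 17 settings (log2 1.01 to 1.20 and -1.90 to -1.50), while Gkn3, a description, ranged from -5.44 (without lactate-treated mouse 3) to -4.02 in the 12 settings that could fit it. Tjp1 passed there in 14 of 17 (-1.22 to -0.86). Of the 9 genes other than Gkn3, 0 passed in vehicle against sham in 15 of 17 settings and 1 in the other two, and 2 to 3 passed in lactate against sham. The counts of 10 genes that follow include Gkn3, whose known fall accounts for the 1 in vehicle against sham, and say nothing of stability. That count was 2 with DESeq2 or without vehicle-treated mouse 2 (Slco1a4 added, at log2 -1.07 and -1.44), 0 with a CPM of at least 5, which removed Gkn3, 3 with the limits of the study, and 1 to 2 when single mice were left out. For other endothelial genes it was 16 in place of 4 with those limits, and 2 to 4 without single mice. In lactate against sham, leaving out single mice gave 2 to 4 of the 10 genes and 14 to 19 other endothelial genes. The count of 2 came without sham mouse 1 or 3, where Tjp1 missed the threshold and Gkn3, with 3 sham mice left at 1 CPM, could not be tested. Between the ischemic groups the limits of the study gave 1 of the 10 genes and 5 other endothelial genes. Log2 differences near 0 changed sign without single mice. In vehicle against sham, Tjp1 ranged from -0.318 to 0.0334 (positive without sham mouse 1) and Abcb1a from -0.375 to 0.0749 (positive without vehicle-treated mouse 4). In lactate against sham, Ocln ranged from -0.439 to 0.0607 (positive without lactate-treated mouse 4). In lactate against vehicle, Ocln ranged from -0.195 to 0.321 (-0.0539 without vehicle-treated mouse 3 and -0.195 without lactate-treated mouse 3), Cdh5 from -0.357 to 0.0070 (positive without vehicle-treated mouse 3) and Abcb1a from -0.450 to 0.0043 (positive without vehicle-treated mouse 1). The causes were not tested. With the mouse number as a replicate block, 1, 4 and 0 of the 10 genes and 3, 22 and 0 other endothelial genes passed in the 3 comparisons, and Slco1a4 in lactate against sham had a log2 fold change of -1.74. Mice with the same number had correlations of -0.17 to 0.18 between their deviations from the group means, so the numbers were not taken to pair the mice. Depth was lowest for Ocln, Cdh5 and Gkn3, with 0 to 49 counts in a mouse.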
